A study of Mus musculus with 17 samples.

Results

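CD8+ T cells taken from the brain of APP-PS1 mice, which are transgenic and model the amyloid of Alzheimer's disease, were compared with CD8+ T cells taken from the blood of mice of the same strain. The comparison rests on 7 of the 17 libraries of the series, 4 labelled APP-PS1 brain and 3 labelled APP-PS1 blood, chosen by their tissue and strain labels alone, and on all 48709 genes listed. The mice carried 2 transgenes, Mo/HuAPP695swe, a chimera of the mouse and human amyloid precursor protein with the Swedish mutation, and PS1-dE9, a mutated form of human presenilin 1. Each was driven by the prion protein promoter and, per the labels, directed to neurons of the central nervous system. Both groups carry the transgenes, and the contrast is between these 7 libraries alone. The fit behind its p-values also held the 10 wild-type (WT) libraries of the series, 5 of brain and 5 of blood, all from females. They enter the expression filter, the normalization and the estimate of spread. Brain held 3 male libraries and 1 female library (replicate 4), and blood held 2 male libraries and 1 female library (replicate 3). No treatment is named, the design text calls the animals aged without giving an age, and the labels pair none of the brain libraries with a blood library. The design text names as many APP-PS1 mice as there are libraries, but whether any brain and blood libraries came from the same animal is not stated by the labels, and all tests treat them as unpaired. The question put to these samples, per the title of the series, is whether CD8+ T cells of the brain have the profile of tissue-resident memory cells. Brain was homogenized and cleared of myelin on a Percoll gradient, whereas the red cells of blood were lysed. Tissue and preparation therefore cannot be told apart in any value below. The p-values measure the spread between libraries of the same group over all 17 libraries, which may be technical.

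CD8+ T cells are the cytotoxic lymphocytes that survey tissues for infected or damaged cells. Naive and central memory cells circulate between blood and lymph nodes, and this circulation depends on the transcription factor KLF2, which maintains the egress receptor S1PR1, and on the chemokine receptor CCR7. Tissue-resident memory cells stay in organs such as skin, gut and brain, and typically have low levels of this circulation programme and high levels of genes such as Cxcr6, Xcl1 and the integrin gene Itgae. Type I and type II interferons act through STAT and IRF transcription factors, which bind short promoter elements, the ISRE and the GAS, upstream of the genes they induce.

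The libraries were shallow. The total was 27646 to 127707 counts in brain and 39055 to 46336 counts in blood, so that, with each library scaled to the same total in CPM, 1 count was worth 7.83 to 36.2 CPM in brain and 21.6 to 25.6 CPM in blood. Brain replicate 1, the shallowest library, stood apart on the first principal component of log2 CPM (24.6% of the variance). The second component (21.3%) separated the tissues, but narrowly. On it brain replicate 1 (1.44) lay close to blood replicate 3 (4.20), with the other brain libraries at -22.8 to -13.9 and the other blood libraries at 19.3 and 28.8. Of the listed genes, 10957 had a count in at least 1 of the 7 libraries, and 2366 passed the expression filter of about 117 CPM in 3 or more of the 17 libraries and were tested. The sex labels held: Xist, which female cells transcribe from the silenced X, was counted 73 times in the female brain library and 4 times in the female blood library, against 0 or 1 in each male library. The endogenous App gene had 0 counts in all 7 libraries, which allows up to 10.1 CPM over the brain group and 23.7 CPM over the blood group (3 counts, counting error only).

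The labelled cell type was visible in both tissues. The summed level of 18 CD8 T cell genes was 12446 to 14360.1 CPM in brain and 11266 to 12214 CPM in blood, a higher range in brain without overlap, although 0 of the 17 tested members passed the test and their median log2 fold change was 0.08. The co-receptor gene Cd8a had 506, 433, 818 and 634 CPM in brain replicates 1 to 4 and 333, 259 and 414 CPM in blood replicates 1 to 3. Its log2 fold change of 0.83 (SE 0.35) did not pass the test (adjusted p = 0.378, quasi-likelihood test of edgeR, Benjamini-Hochberg adjustment over 2366 genes, as for every adjusted p below). The partner chain Cd8b1 had a log2 fold change of 0.08, and the CD3 chains Cd3e and Cd3g had 0.75 and 0.86, none of them called. Cd4, Foxp3 and Cd40lg, which mark helper and regulatory T cells, were at 0 counts in all 7 libraries.

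Markers of other cell types were low next to the CD8 list, with 1 exception in blood. Of 16 microglia and macrophage genes, 6 were at 0 in all 7 libraries, among them the microglial genes P2ry12, Tmem119, Csf1r and Trem2, and the summed level of the list was lower in brain (217 to 409 CPM in brain and 496 to 657 CPM in blood). Its 2 tested members, Ctss and Cst3, were at -1.62 and -0.62 in log2 fold change and not called. Of the 8 members below the expression filter with a count, 5 had counts in brain alone and 1 in blood alone. The 5 were C1qb, C1qc, Tyrobp and Cd68 with 2 counts each and Aif1 with 1. Neuron, astrocyte and endothelium markers together gave 6 counts in brain and 3 in blood. The 8 oligodendrocyte genes, 5 of them at 0, summed to 213 to 431 CPM in brain and 243 to 435 CPM in blood. The 14 B cell genes, 7 of them at 0, summed to 107 to 620.5 CPM in brain, highest in replicate 2, and 219 to 345 CPM in blood. Of 9 monocyte and neutrophil genes, 6 were at 0, among them S100a8, S100a9 and Cd14, and 56 of the 59 brain counts of the list were Ccr2, a chemokine receptor that T cells also carry. Red cell genes were the exception: their sum was 36.2 to 368 CPM in brain and 2970.2 to 8071 CPM in blood, all of it from haemoglobin genes, while Alas2 and Slc4a1 were at 0. Red cell RNA thus moved with tissue, and beyond the fit without haemoglobin genes given below its part in the levels of other genes was not tested. Of the 7 natural killer and gamma-delta T cell genes, Ncr1, Trdc and Fcer1g were at 0, and the sum, mostly of gamma chain constant genes, was 339.5 to 579 CPM in brain and 108 to 462 CPM in blood.

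**Figure D1:**
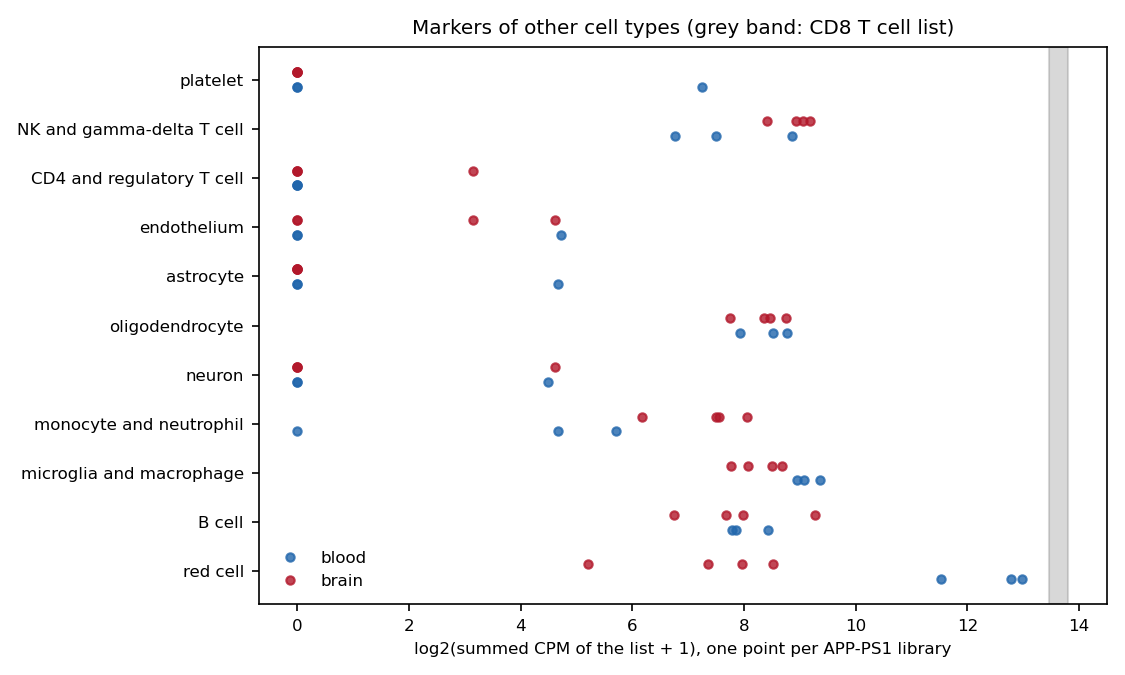
Summed level of marker lists of other cell types in each APP-PS1 library, on a log2(CPM + 1) axis, 1 point per library, with the range of the CD8 T cell list over the 7 libraries as a grey band. Red cell genes reached 2970 to 8071 CPM in blood and were 36.2 to 368 CPM in brain, and the lists of neurons, astrocytes and endothelium were at or near 0.

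Brain and blood differed in 13 of the 2366 tested genes (0.549%), 5 higher in brain (0.211%) and 8 lower (0.338%). Higher in brain were Cxcr6, which encodes the receptor for CXCL16, the interferon-induced exonuclease gene Isg20, the cytokine signalling inhibitor gene Socs1, the clathrin light chain gene Clta and Efhd2, which encodes a calcium-binding protein. Lower were the transcription factor genes Klf2, Klf3 and Lef1, the homing receptor gene Ccr7, the immediate early gene Ier2 and the haemoglobin genes Hbb-bs, Hba-a2 and Hba-a1. All tested genes had a median log2 fold change of 0.03, and 51.7% were above 0. At an unadjusted p under 0.05, 137 genes were higher (5.79%) and 117 lower (4.95%). The 4 brain and 3 blood CPM did not overlap for 120 genes higher in brain (5.07%) and 94 lower (3.97%), and these are the shares against which the counts of each gene group below are read. In bulk libraries, a smaller share of a cell type and less RNA per cell cannot be told apart.

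**Figure D2:**
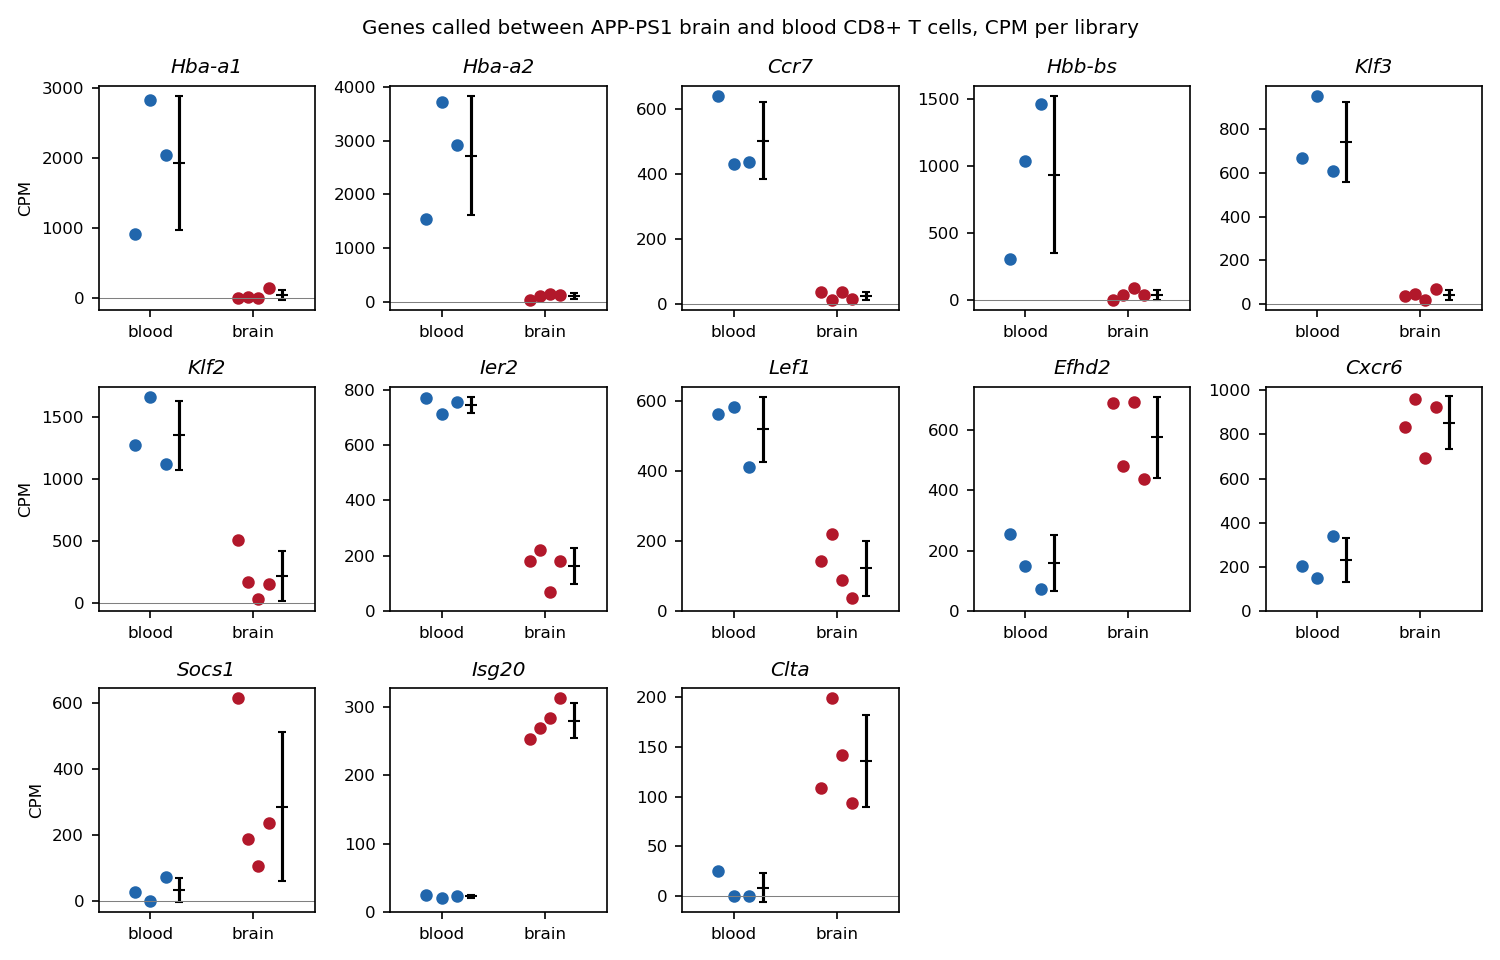
CPM in each blood (blue) and brain (red) library of the 13 called genes, with points side by side in the order of the replicate number and the mean with its SD as a bar to the right of each group. The tissues did not overlap for any of the 13 genes, and Isg20 had 1 count in each blood library.

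The 3 calls with the smallest p were genes of the circulation programme, all lower in brain. Klf3, a Krüppel-like factor (chr5:64803388-64832901, plus strand, GRCm38), had 36.2, 46.8, 17.8 and 70.5 CPM in brain replicates 1 to 4 and 666, 949.6 and 608 CPM in blood replicates 1 to 3. The highest brain library was below the lowest blood library by more than the range within either tissue, and Klf3 fell by 3.91 in log2 units (SE 0.48, adjusted p = 9.66e-08). Klf2, the regulator of S1PR1 (chr8:72319033-72321656, plus strand), had 506, 176, 35.6 and 157 CPM in brain and 1280.2, 1662 and 1119 CPM in blood. Brain replicate 1 was the highest of the brain libraries and still under every blood library, and Klf2 fell by 2.88 (SE 0.40, adjusted p = 2.04e-06). Ccr7, the receptor for lymph node chemokines (chr11:99144196-99155077, minus strand), had 36.2, 11.7, 35.6 and 15.7 CPM in brain, which were 1 or 2 counts per library, and 640.1, 432 and 438 CPM in blood. It fell by 4.47 (SE 0.68, adjusted p = 1.21e-05). Each of these 3 calls held when any 1 of the 7 libraries was left out, with adjusted p of at most 0.000504.

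The egress receptor S1pr1 itself was too scarce for a call, with 3 counts over all brain libraries and 6 over all blood libraries (log2 fold change -1.99, SE 1.27, adjusted p = 0.617). Of 15 tested quiescence and egress genes, 3 were called lower and 0 higher, all 15 values were below 0, and the median was -1.34. In 5 of them brain and blood did not overlap, all lower in brain, the others being Tsc22d3, a glucocorticoid-induced gene (-1.34, adjusted p = 0.16), and Cmah, an enzyme of sialic acid synthesis (-3.74, adjusted p = 0.17), which did not pass. The summed level of the 20 listed genes was 3146 to 5462 CPM in brain and 7494 to 9320.2 CPM in blood, without overlap.

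Of 10 tested genes of naive and stem-like T cells, 3 were called lower and 0 higher, 9 values were below 0 and the median was -2.09. Lef1, a TCF family transcription factor of naive cells (chr3:131110471-131224356, plus strand), had 145, 222, 88.9 and 39.2 CPM in brain and 563, 583 and 414 CPM in blood. Brain replicate 4 was the lowest and replicate 2 the highest brain library, both under the lowest blood library, and Lef1 fell by 2.13 (SE 0.47, adjusted p = 0.00969). The call ended without brain replicate 4 or blood replicate 2 (adjusted p up to 0.102). It also ended with no filter, in male libraries alone and after thinning (up to 0.133). Its relative Tcf7 had 109, 281, 160.0 and 235 CPM in brain and 307, 432 and 559.6 CPM in blood, again without overlap, but its log2 fold change of -1.05 did not pass (adjusted p = 0.366). The chromatin organizer gene Satb1 (-2.05), Dapl1 (-3.47) and the interleukin 7 receptor gene Il7r (-1.33) did not pass either (adjusted p of 0.258 to 0.437). The summed level of the 18 genes was 1034 to 1483 CPM in brain and 3917 to 5223 CPM in blood, and 5 of the 10 tested genes, Klf2, Ccr7, S1pr1 and Tcf7 among them, also belong to the list of genes low in resident cells, so these lists are not separate evidence.

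Of 11 tested immediate early genes, which respond within minutes to stimulation and to tissue handling, Ier2 alone was called, 8 values were below 0, and the median was -0.63. Ier2 (chr8:84661331-84662852, minus strand) had 181, 222, 71.1 and 180.1 CPM in brain and 768, 712 and 754 CPM in blood, 164 ± 64.8 (SD, n = 4) against 745 ± 29.1 (SD, n = 3). The blood libraries ranged from 712 to 768 CPM and every brain library was far below them, and Ier2 fell by 2.15 (SE 0.41, adjusted p = 0.000911). Junb, an AP-1 subunit, had 1555, 515, 729 and 681 CPM in brain and 2407, 1144 and 1557 CPM in blood. Brain replicate 1 overlapped the blood range, and its log2 fold change of -1.05 did not pass (adjusted p = 0.123). Fos, below the filter, had 3 counts in brain and 7 in blood, an order without overlap for which the exact two-sided permutation p was 0.0571, the smallest that 4 against 3 libraries allow. Other members below the filter went the other way, such as Nr4a2 with 18 counts in brain and 0 in blood. Over the 12 members below the filter the pooled brain level was 1.17 times the blood level (104 and 38 counts).

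The haemoglobin genes, which belong to red cells, were high in every blood library. Hba-a2 had 36.2, 105, 160.0 and 141 CPM in brain and 1536, 3712 and 2919.6 CPM in blood, and fell by 4.51 (adjusted p = 0.0114). Hba-a1 fell by 4.93 (adjusted p = 0.0244) and Hbb-bs fell by 4.40 (adjusted p = 0.000795), while Hbb-bt, at -4.70, narrowly missed the threshold (adjusted p = 0.0555). The Hba-a1 call ended without brain replicate 1, 2 or 3 or blood replicate 2 (adjusted p up to 0.102), with no filter, with a filter of 5 CPM and with limma voom (up to 0.0926). The Hba-a2 call ended without blood replicate 2 (adjusted p = 0.0701) and in male libraries alone, and the Hbb-bs call with limma voom (0.0727). Reads of the paired alpha genes and of the paired beta genes cannot be told apart with certainty. With haemoglobin, mitochondrial and ribosomal protein genes left out of the table, 8 of the other 10 calls held (Clta and Socs1 did not).

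The most abundant of the genes higher in brain was the receptor gene Cxcr6. It (chr9:123806475-123811760, plus strand) had 832, 960.1, 693 and 924 CPM in brain and 205, 151 and 341 CPM in blood, 852 ± 119 (SD, n = 4) against 232 ± 97.7 (SD, n = 3). The lowest brain library was above the highest blood library, and the log2 fold change was 1.87 (SE 0.40, adjusted p = 0.00671). Without blood replicate 2 the call ended (adjusted p = 0.0961), and with every library thinned to the smallest total it was just missed (0.0504). Of the other chemokine receptors, Ccr2 had 56 counts in brain and 3 in blood (log2 fold change 2.75, adjusted p = 0.17). Cxcr3, a receptor of interferon-induced chemokines, and Cxcr4 had log2 fold changes of 0.26 and -0.19 (adjusted p = 0.914 and 0.957), whose signs changed under some alternatives. The chemokine gene Xcl1, whose product attracts cross-presenting dendritic cells, had 181, 445, 320.0 and 266 CPM in brain and 25.6, 151 and 24.3 CPM in blood. These did not overlap, and the log2 fold change of 2.11 (SE 0.61) did not pass (adjusted p = 0.0816). Ccl5, the most abundant chemokine gene of these cells, had 19786, 17363, 13581 and 25277 CPM in brain and 24119.8, 27969.6 and 26033 CPM in blood (log2 fold change -0.48, adjusted p = 0.435).

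The list of genes that are typically high in tissue-resident memory T cells had 16 tested members. Of these, 2 (Cxcr6 and Isg20) were called higher and 0 lower, 13 values were above 0, and the median was 1.39. In 7 of the 16 the brain libraries were all above the blood libraries, against 5.07% of all tested genes. Scarce members of this and every other list entered the test only if they were abundant in some group, so these counts cover the tested members and not the whole list. Pdcd1, Litaf and Isg20 stayed under about 117 CPM in every blood library and so entered through brain libraries, where they were high. This and the other lists were also drawn up with results of these data known, so these shares are not independent support. The summed level of the 34 listed genes was 3609.8 to 3762 CPM in brain and 1532 to 1679 CPM in blood, so that the brain libraries varied little among themselves. Rgs1, a regulator of G protein signalling, was at 1.39 (adjusted p = 0.413), without overlap and not called. Vps37b, an ESCRT component on the list, went the other way (-2.45, adjusted p = 0.175). It was the 1 member of the 16 that was lower in brain without overlap, against 3.97% of all tested genes. The activation and retention gene Cd69 had 109, 105, 462 and 93.97 CPM in brain and 154, 194 and 0 CPM in blood. Brain replicate 3 alone was high, and the log2 fold change of 0.67 did not pass (adjusted p = 0.823). Itgae, the CD103 integrin gene, had 11 counts in 3 of 4 brain libraries and 0 in blood, which makes brain at least 1.56-fold higher when 3 counts are assumed over the blood libraries (exact two-sided permutation p = 0.229). Itga1, the CD49a gene, was counted 11 times in brain and 2 times in blood (exact two-sided permutation p = 0.229). The opposite list, of genes typically low in resident cells, had 15 tested members, of which 3 (Klf2, Klf3 and Ccr7) were called lower and none higher, with a median of -1.86. Of these 15, 3 values were above 0, and the integrin gene Itgb1 (1.33) was higher in brain without overlap, against the direction of the list, and was not called.

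**Figure D3:**
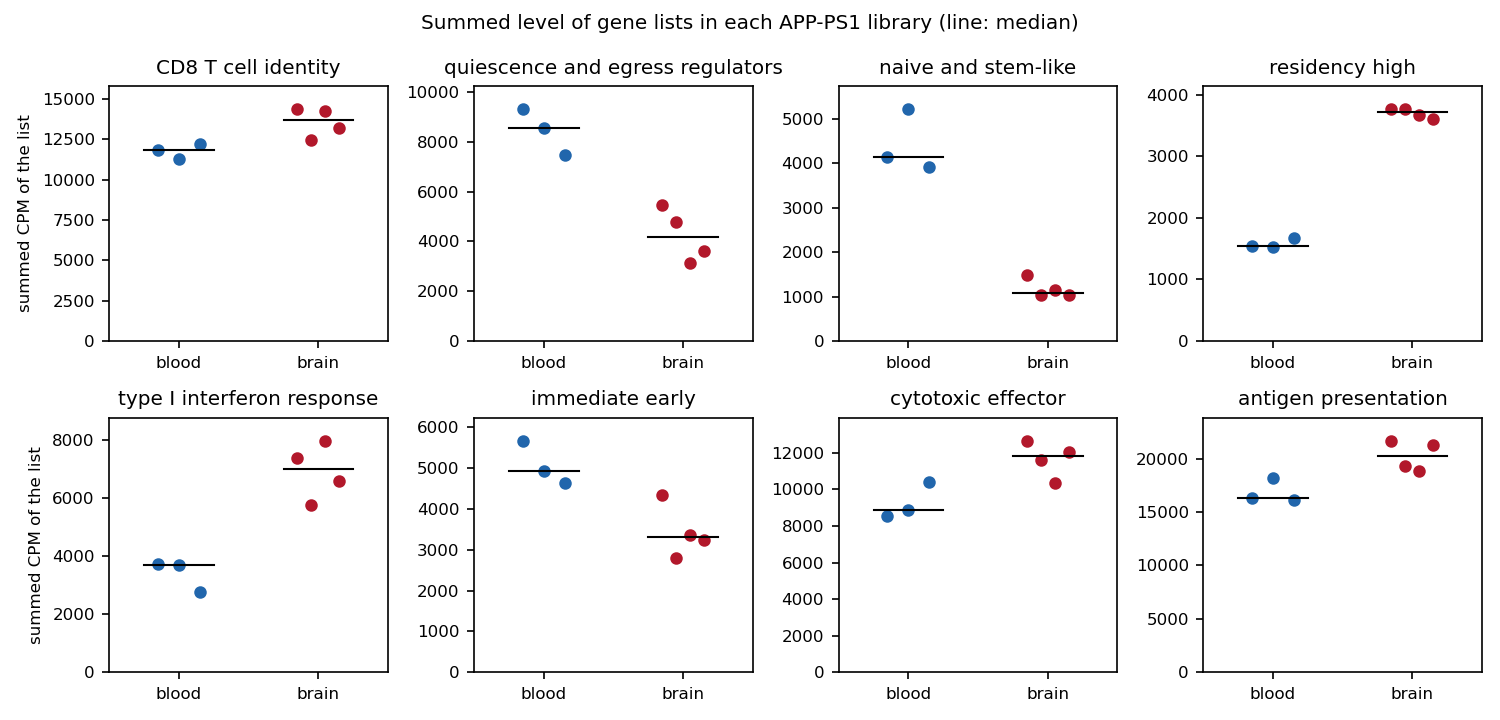
Summed CPM of 8 gene lists in each APP-PS1 library, 1 point per library, with the median of each tissue as a line. The residency-high, interferon, CD8 T cell and antigen presentation sums were higher in every brain library. The quiescence, naive and immediate early sums were lower, while the cytotoxic effector sums overlapped.

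Of 30 tested interferon-induced genes, 26 had a value above 0 and 1 was called, Isg20, which was higher in brain. Isg20 (chr7:78913424-78920396, plus strand), an RNA exonuclease, had 253, 269, 284 and 313 CPM in brain and 25.6, 21.6 and 24.3 CPM in blood, where each library held 1 count. The brain libraries were close to each other and all far above blood, and the log2 fold change was 3.49 (SE 0.75, adjusted p = 0.00734), a size that 3 blood counts leave uncertain. The call ended without blood replicate 2 (adjusted p = 0.0701), in male libraries alone (0.0875) and with limma voom (0.329). The median of the 30 tested genes was 1.06, 10 were higher at an unadjusted p under 0.05 and 0 lower, and 8 of the 30 were higher without overlap between tissues, against 5.07% of all tested genes. Isg20, Ifit1, Ifit3 and Irf9 stayed under about 117 CPM in every blood library of both strains. They thus entered the test through brain libraries, where they were high. This list too was drawn up with results of these data known, so these shares are not independent support. The median stayed between 0.52 and 1.56 under every alternative.

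Ifit1, an RNA-binding effector, had 145, 152, 178 and 219 CPM in brain and 0, 21.6 and 24.3 CPM in blood, 55 counts against 2. Ifit3 had 181, 117, 160.0 and 227 CPM in brain and 51.2, 43.2 and 0 CPM in blood, and its reads cannot be told apart with certainty from those of Ifit3b. Irf9, the DNA-binding subunit of the complex that acts at the ISRE, had 217, 70.2, 124 and 117 CPM in brain and 25.6, 0 and 24.3 CPM in blood. All 3 genes were higher in every brain library than in any blood library, with log2 fold changes of 3.35, 2.39 and 2.83 which missed the threshold (adjusted p = 0.17, 0.219 and 0.25). Zbp1, a nucleic acid sensor, was at 2.01, Trim30a at 1.78 and Ifi27l2a at 1.34, without overlap (adjusted p of 0.0975 to 0.309). The ubiquitin-like modifier gene Isg15 had 72.3, 176, 338 and 243 CPM in brain and 102, 21.6 and 48.7 CPM in blood. Brain replicate 1 lay within the blood range, and its log2 fold change of 1.94 did not pass (adjusted p = 0.232).

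The members of the interferon list below the expression filter, none of which entered the test, gave the same order. They stand on the same list, drawn up with results of these data known, so their order is not independent support. In all, 19 of them had a count in at least 1 of the 7 libraries, with 176 counts in brain and 17 in blood. Their summed level was 503 to 658 CPM over the brain libraries and 48.7 to 256 CPM over the blood libraries, without overlap. Pooled over libraries, the brain level was 4.41 times the blood level, against 1.06 times for all 8591 genes below the filter with a count. Of the 19, 12 had counts in brain and 0 in blood, and 0 had counts in blood alone. The brain libraries together held more counts (297018 against 126493), and among all 8591 genes below the filter 2822 had counts in brain alone and 741 in blood alone. The summed level of all 51 listed genes was 5760.4 to 7964 CPM in brain and 2774 to 3713 CPM in blood.

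The 120 bases upstream of the start of 4 of these genes, the called genes Isg20 and Socs1 and the interferon genes Isg15 and Trim30a, are shown because they hold letters of the interferon response elements. They are RefSeq sequences of GRCm38.p6, written 5′ to 3′ on the strand of the gene, with matches in capitals to the ISRE core (GAAA, any 2 bases, GAAA) or the GAS core (TTC, any 3 bases, GAA), searched on both strands. The windows are chr7:78913304-78913423, plus strand (Isg20), chr16:10785537-10785656, minus strand (Socs1), chr4:156200819-156200938, minus strand (Isg15) and chr7:104465194-104465313, minus strand (Trim30a), and no annotated exon overlaps them.
Isg20: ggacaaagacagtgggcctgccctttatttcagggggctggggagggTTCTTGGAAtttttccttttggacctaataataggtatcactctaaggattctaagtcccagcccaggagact
Socs1: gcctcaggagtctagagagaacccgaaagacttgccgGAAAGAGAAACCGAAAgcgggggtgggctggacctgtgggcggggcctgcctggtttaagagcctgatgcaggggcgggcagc
Isg15: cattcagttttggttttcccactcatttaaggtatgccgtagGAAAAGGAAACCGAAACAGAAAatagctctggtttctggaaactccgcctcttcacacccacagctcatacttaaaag
Trim30a: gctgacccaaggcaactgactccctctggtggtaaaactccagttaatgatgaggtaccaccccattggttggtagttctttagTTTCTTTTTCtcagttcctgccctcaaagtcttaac
Isg20 holds 1 GAS match and no ISRE match, Socs1 holds 2 overlapping ISRE matches, Isg15 holds 3 overlapping ones and Trim30a holds 1 on the other strand. In the first window of 300 bases that RefSeq gives for a gene, an ISRE match was found for 3.49% of 27025 genes and a GAS match for 8.47%. Of the 5 genes called higher, Socs1 alone had an ISRE match and Isg20 alone a GAS match, and of the 8 called lower, 6 had a window and 0 held either. Windows were found for 20 of the 30 tested interferon genes, too few for a comparison of shares. Of these 20, 10 held an ISRE match and 6 a GAS match. A match is a stretch of letters and says nothing of a bound factor.

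Socs1, which encodes an inhibitor of JAK kinases that interferons induce (chr16:10782240-10785536, minus strand), had 615, 187, 107 and 235 CPM in brain and 25.6, 0 and 72.99 CPM in blood. Brain replicate 1 was the highest and replicate 3 the lowest brain library, with all 3 blood libraries below them on 4 counts in all, and the log2 fold change was 2.94 (SE 0.75, adjusted p = 0.0437). The call ended without WT brain replicate 1, brain replicate 1 or 4 or blood replicate 1 or 2 (adjusted p up to 0.251), and in 5 of 11 other alternatives, DESeq2 and limma voom among them (adjusted p up to 0.498). It was the single call among 14 tested cytokine receptor and JAK-SOCS genes, whose median was 0.06 with a sign that changed between alternatives. The kinase gene Jak1 had 723, 644, 853 and 556 CPM in brain and 1357, 1057 and 925 CPM in blood, without overlap, and its log2 fold change of -0.71 did not pass (adjusted p = 0.366).

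Efhd2 and Clta were the calls outside these programmes. Efhd2, also known as swiprosin-1 (chr4:141858142-141874920, minus strand), had 687, 480.0, 693 and 439 CPM in brain and 256, 151 and 72.99 CPM in blood. The tissues did not overlap, and the log2 fold change was 1.80 (SE 0.45, adjusted p = 0.0379). Clta, the light chain of the clathrin coat that forms endocytic vesicles (chr4:44004452-44032846, plus strand), had 109, 199, 142 and 93.97 CPM in brain and 25.6, 0 and 0 CPM in blood, where 1 count was found in all. Its log2 fold change was 3.89 (SE 0.99, adjusted p = 0.0441), and its size depends on that single count. Each of the 2 calls ended when any of several single libraries was left out, with adjusted p up to 0.164 for Efhd2 (brain replicate 1 or 3, blood replicate 2 or 3) and up to 0.215 for Clta (brain replicate 2 or 3, blood replicate 2 or 3, WT brain replicate 1). Efhd2 also lost its call in 4 of 13 other alternatives (no filter, the 7 libraries alone, male libraries alone and limma voom, adjusted p up to 0.163). Clta lost its call in 6 of 11 (no filter, a filter of 5 CPM, male libraries alone, removal of mitochondrial, ribosomal and haemoglobin genes, DESeq2 and limma voom, adjusted p up to 0.323). Both stand on the vesicle trafficking and clathrin list, which was drawn up with results of these data known. The other 8 of 10 tested vesicle trafficking and clathrin genes were not called, among them the endosomal GTPase gene Rab5c (-1.23, adjusted p = 0.419), and the median of the list was -0.79, which turned to 0.08 with no filter, to 0.10 with a filter of 5 CPM in 3 libraries and to 1.88 after thinning.

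**Figure D4:**
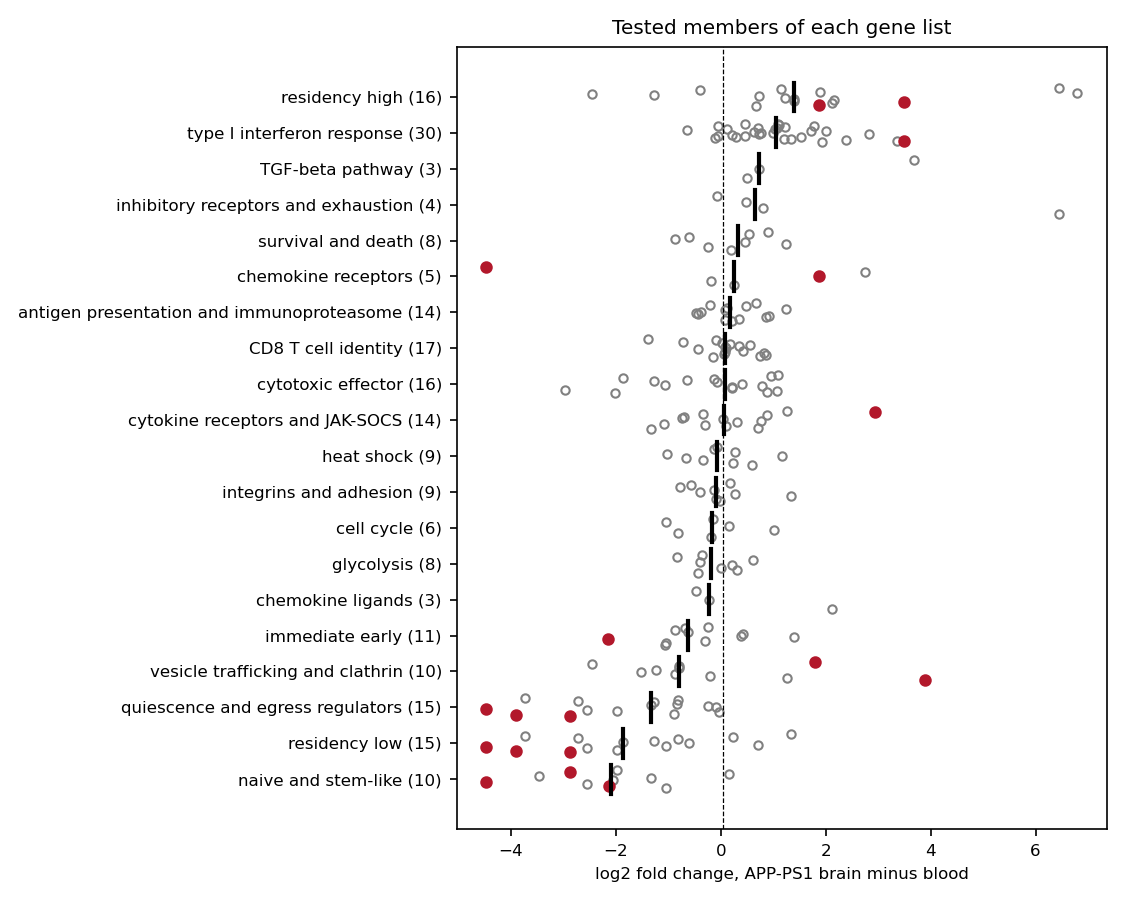
Log2 fold change, APP-PS1 brain minus blood, of the tested members of each gene list (circles, with called genes filled in red), the median of each list as a black bar, the number of tested members in parentheses and the median of all tested genes as a dashed line. The medians ran from -2.09 for naive and stem-like genes to 1.39 for residency-high genes, and no more than 3 members of any list were called.

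The 10 genes next in order among those higher in brain without overlap had adjusted p of 0.0584 to 0.0975. Pdcd1, the gene of PD-1, a receptor that restrains T cells, had 326, 35.1, 53.3 and 149 CPM in brain and 0 counts in blood. All 4 brain libraries held at least 3 counts, and with the same assumption the pooled brain level was at least 4.83-fold higher (adjusted p = 0.0584). Litaf, an endosomal membrane protein gene, and Rnf115, a ubiquitin ligase gene, were likewise at 0 in blood with 44 and 29 counts in brain, at least 6.25-fold and 4.12-fold higher (adjusted p = 0.0594 and 0.0714). Ccnd2, the cyclin D2 gene, had 832, 1065, 1529 and 1605 CPM in brain and 538, 302 and 754 CPM in blood, which gave 1.27 as the log2 fold change (SE 0.34, adjusted p = 0.0584). Casp1, the inflammatory caspase gene, had 362, 222, 569 and 258 CPM in brain and 51.2, 43.2 and 146 CPM in blood, with 2.07 (SE 0.56, adjusted p = 0.0594). The others were Ppp1r16b (1.49), the TNF receptor family gene Igflr1 (3.41), the glutaredoxin gene Glrx (3.27), and Xcl1 and Ifi27l2a, given above. None of the 10 passed the threshold.

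The 10 next genes lower in brain had adjusted p of 0.0535 to 0.123. Gzmm, the granzyme M gene, had 0, 11.7, 35.6 and 31.3 CPM in brain and 51.2, 302 and 195 CPM in blood, which gave -2.97 as the log2 fold change (SE 0.78, adjusted p = 0.0535). Limd2, a LIM domain gene, had 1013, 562, 604 and 532 CPM in brain and 1152, 1597 and 1144 CPM in blood, with brain replicate 1 close to the blood range (-1.03, adjusted p = 0.0911). Tagap, which encodes a GTPase-activating protein, was at -2.67, Ctla2a, a cathepsin inhibitor gene, at -1.19, Cdc37, an HSP90 co-chaperone gene, at -2.05, Eapp at -1.89, the histone variant gene H2afz at -1.04 and Pde2a_1 at -3.58. The mitochondrial gene mt-Nd2 was at -0.90 (adjusted p = 0.123), and 12 of 13 tested mitochondrially encoded genes were below 0, with a median of -0.35. The mitochondrial share of counts was 1.70% to 2.83% in brain and 2.17% to 3.34% in blood, and its part in these values was not tested.

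The cytotoxic programme as listed showed no common direction. Of 16 tested genes 0 were called, 8 values were above 0 and 8 below, and the median of 0.07 turned to -0.04 without brain replicate 4. Gzmk had 723, 351, 107 and 446 CPM in brain and 128, 216 and 195 CPM in blood (log2 fold change 1.07, adjusted p = 0.435), Gzmb had 0.89 (adjusted p = 0.736) and Gzma -2.01 (adjusted p = 0.559). Id2, a transcriptional regulator of effector and resident cells, had 2496, 3606, 3413 and 3625 CPM in brain and 819, 1791 and 2336 CPM in blood, without overlap (0.96, SE 0.29, adjusted p = 0.0975). The receptor genes Klrd1 and Klrg1, which mark cytotoxic effector cells, were at -1.27 and -1.86 (adjusted p = 0.258 and 0.454). Among inhibitory receptor and exhaustion genes, 0 of 4 tested were called. Tox had 0.80 (adjusted p = 0.744), and below the filter Lag3 was counted 8 times in each tissue (exact two-sided permutation p = 0.171) and Ctla4 had 0 and 1.

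Genes of class I antigen presentation, which nearly all nucleated cells express, had 14 tested members, of which 0 were called. Of their values, 10 were above 0 and the median was 0.17, although the summed level was higher in every brain library (18789 to 21667 CPM in brain and 16082 to 18172 CPM in blood). The class I genes H2-Q7 and H2-T23 and the immunoproteasome subunit gene Psmb9 had 0.87, 0.93 and 1.24 (adjusted p of 0.287 to 0.351), and reads of class I genes cannot be told apart with certainty. Among 9 tested integrin and adhesion genes 0 were called. Itgb1 had 253, 363, 569 and 666 CPM in brain and 205, 129 and 243 CPM in blood, without overlap (1.33, adjusted p = 0.16), while its partner Itga4 was at -0.01, with a sign that changed between alternatives, and Selplg, the P-selectin ligand gene, at -0.79 (adjusted p = 0.996 and 0.411). Glycolysis (8 tested), heat shock (9), cell cycle (6), survival (8) and TGF-beta (3) genes gave 0 calls. Their medians lay between -0.18 and 0.72, and the first 4 changed sign under at least 1 alternative. Pmepa1, a target of TGF-beta, had 34 counts in brain and 1 in blood, without overlap and not called (adjusted p = 0.16).

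The same comparison in WT mice (5 brain and 5 blood libraries), which shares no library with it, was used to ask where the tissue difference of the amyloid strain differs. All 13 genes had the same sign in WT, and 7 were called there (Klf2, Klf3, Cxcr6, Isg20 and the 3 haemoglobin genes), where 18 of 2366 genes (0.761%) passed the test. All 13 were larger in APP-PS1, the comparison in which they were selected, so their size there carries no weight. The list medians in WT were -1.68 for quiescence and egress genes (-1.34 in APP-PS1) and -1.92 for naive and stem-like genes (-2.09). They were -1.79 for residency-low (-1.86), 1.23 for residency-high (1.39) and 0.65 for interferon genes (1.06). For cytotoxic genes the WT median was -0.45 (0.07), and for vesicle trafficking and clathrin genes -0.09 (-0.79). The difference of the differences was called for 1 of 2366 genes (0.0423%), the immunoglobulin gene Igkc, and for 0 of the 13. Without adjustment, 117 genes passed 0.05 in this contrast (4.95%), among them Clta, Efhd2, Ccr7, Klf3, Socs1 and Ier2, whose adjusted p were 0.712 to 0.941. For Ccr7 brain held 19.2 ± 7.51 CPM (SD, n = 5) in WT and 24.8 ± 12.9 (SD, n = 4) in APP-PS1, and blood held 79.03 ± 37.97 CPM (SD, n = 5) in WT and 503 ± 119 (SD, n = 3) in APP-PS1. Clta likewise had 167 ± 64.2 CPM in WT brain and 150.4 ± 46.7 CPM in WT blood (SD, n = 5 each), against 136 ± 46.7 and 8.53 ± 14.8 CPM in APP-PS1. All WT libraries came from females, so strain and sex largely coincide in this comparison.

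**Figure D5:**
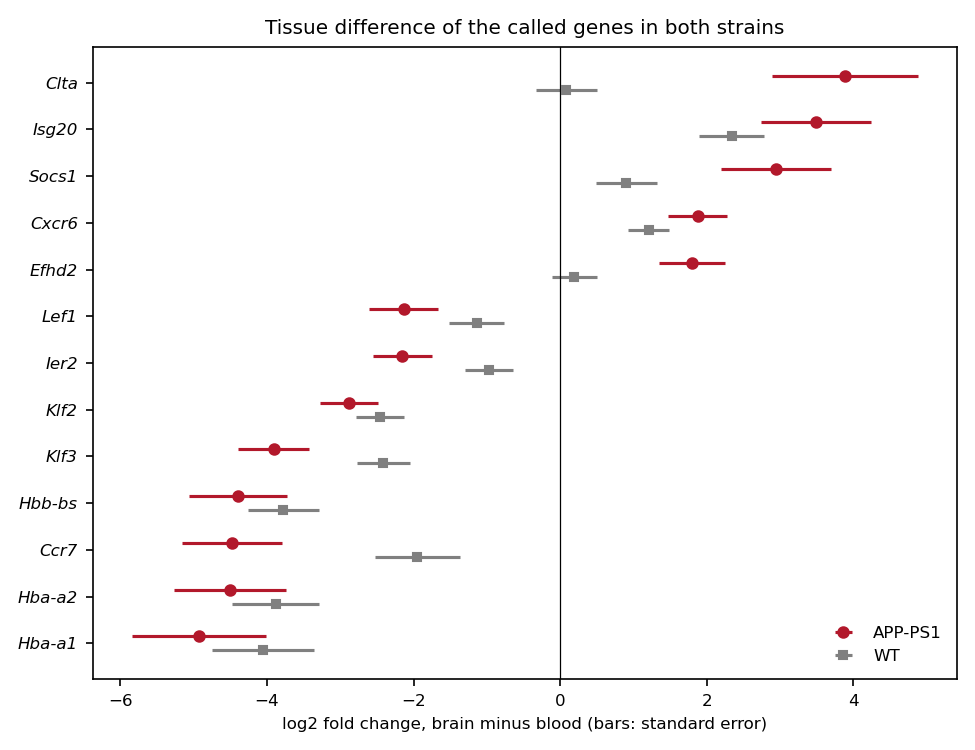
Log2 fold change, brain minus blood, of the 13 genes called in APP-PS1 (circles), with the same contrast in WT (squares) and standard errors as bars. All 13 pairs share their sign, and Clta and Efhd2 sit near 0 in WT.

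With the male APP-PS1 libraries alone (3 brain, 2 blood), 12 genes were called, 8 of them among the 13. Klf2, Klf3, Ccr7, Ier2, Cxcr6, Socs1, Hba-a1 and Hbb-bs kept their call, while Isg20 (log2 fold change 3.44, adjusted p = 0.0875), Lef1 (-1.85, 0.0998), Efhd2 (1.59, 0.163), Clta (3.60, 0.132) and Hba-a2 (-4.59, 0.0998) did not. The number of calls rested on single blood libraries: it was 8 without blood replicate 2, 5 of them among the 13, and 22 without blood replicate 3, 11 of them among the 13. Klf2, Klf3, Ccr7, Ier2 and Hbb-bs were called without any 1 of the 7 libraries.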

How the data were processed

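RNA of CD8+ T cells was sequenced in 17 libraries, of which 7 make up the comparison and 10 (WT brain and blood) share its estimate of spread. Whole, unnormalized read counts for each gene were deposited. FastQC, Bowtie2 2.2.2, HTSeq 0.11.2, DESeq2 and GRCm38 are named in the submitters' processing notes, without role or order. The annotation release, the strand setting, any use of molecular identifiers and the method of separating CD8+ cells were likewise not given in the sources used here. Libraries were grouped by their tissue and strain labels, and replicate numbers only name libraries in accession order. No 2 libraries of a group were identical, and over 29 same-group pairs the counts differed by 2.59 to 5.69 times the sampling noise (chi-square per degree of freedom).

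Genes were filtered with filterByExpr (about 117 CPM), normalized by TMM and tested with edgeR 4.0.16 (robust quasi-likelihood test, R 4.3.3) over all 17 libraries, with Benjamini-Hochberg adjustment over 2366 genes and a threshold of 0.05. The common biological coefficient of variation was 0.370. Printed CPM are counts scaled by the library total. Genes below the filter were compared with an exact permutation test over libraries (SciPy 1.17.1). Of 474 listed gene symbols, 473 were matched and 1 was not analysed here, and the values of a few listed genes are not reported here. The gene lists and the members were chosen with earlier results of these data known. The genes named were those called, the 10 next in each direction by p without overlap, called and abundant members of each list, genes called in the strain contrast and a set of lymphocyte genes. List members with an unadjusted p under 0.05, and marker genes of other cell types, were added after their values were seen. Tested on simulated data for this comparison with 2142 genes, the fit recovered 12.5% of 88 genes changed 2-fold and 61.4% of 101 changed 4-fold, and called 2 of 1953 unchanged genes. Alternatives were other normalizations and filters, a non-robust fit, the 7 libraries alone, sex as a term, male libraries alone, thinning to 27646 counts, removal of mitochondrial, ribosomal and haemoglobin genes, each library left out, DESeq2 1.42.0 and limma 3.58.1 (voom). Intervals and floors cover counting error only.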

Additional observations from a re-analysis of the deposited data

Results flagged for a closer look

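In 5 of 73 genes, 1 of the 4 brain libraries stood far from the other 3, by Dixon's test. About 5% of the values checked, for 73 genes and 27 list sums, are marked by chance, which is 5 values, and no list sum was marked. Hba-a1 reached 148.8 CPM in brain replicate 4, against 0 to 23.4 CPM in the other brain libraries, and was still below every blood library. Limd2 had 1013 CPM in brain replicate 1, the library with the smallest total. Klrd1 had 217 CPM in the same library. Il7r and Cd69 each had 462 CPM in brain replicate 3.

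The tissue difference of Igkc, the immunoglobulin kappa constant gene of B cells and plasma cells, differed between strains by 5.56 on the log2 scale (edgeR's quasi-likelihood test of the interaction, adjusted p = 0.0104). In APP-PS1 it had 3, 42, 1 and 11 counts in brain replicates 1 to 4 and 0, 1 and 1 counts in blood replicates 1 to 3. The WT means were 49.4 CPM in brain and 206 CPM in blood (n = 5 each). The call ended without APP-PS1 brain replicate 2, which held most of the brain counts, or without blood replicate 1, and with DESeq2, limma voom or thinning. Of the 14 listed B cell genes, 7 were at 0 in all 7 APP-PS1 libraries, among them Ms4a1, Pax5 and Ighd. The 6 members below the filter with a count had 35 counts in brain and 32 in blood. Their pooled brain level was 0.466 times the blood level, the opposite order to Igkc. The part of B cell RNA in this difference was not tested.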

How the results depend on the processing

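No paired analysis was possible because the labels give no replicate numbers shared between brain and blood. If some of these libraries came from the same animals, which is not known, the unpaired errors and p-values do not take it into account. The count of 13 called genes became 8 without mitochondrial, ribosomal and haemoglobin genes, where 3 of the 13 are no longer in the table, and 7 with limma voom, and it ranged from 8 (without blood replicate 2) to 22 (without blood replicate 3) when libraries were left out. The 5 genes called higher became 8 with library totals, 2 with no filter, 8 with a filter of 5 CPM, 3 with the 7 libraries alone, 2 after thinning, 3 without mitochondrial, ribosomal and haemoglobin genes and 1 with limma voom, with a range of 2 to 9 over left-out libraries. The 8 called lower became 5 without mitochondrial, ribosomal and haemoglobin genes and 13 with DESeq2, with a range of 6 to 13. The single gene called in the strain contrast became 0 after thinning, with DESeq2 and with limma voom, with a range of 0 to 1. Apart from removal of those genes, the cause of these changes was not tested. Reversed signs were limited to genes without a call: Cxcr3 was at -0.069 after thinning, and Cxcr4 was at 0.61 with limma voom and ranged from -0.75 to 0.88 over left-out libraries. Itga4 was at 0.00815 with library totals, 0.12 with no filter, 0.14 with a filter of 5 CPM and 0.013 with the 7 libraries alone, and ranged from -0.082 to 0.15, and Cd8b1 ranged from -0.065 (without blood replicate 1) to 0.21. Depth limits genes that did not reach about 117 CPM in 3 or more of the 17 libraries, which were not tested, and folds that rest on 0 to 4 blood counts (Isg20, Socs1, Clta). Tested genes could be under that level in the 7 libraries, such as Cd44 with means of 55.4 CPM in brain and 69.7 CPM in blood.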
